A study of Mus musculus with 8 samples.

Results

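The RNAs described here encode nucleoporins, the building blocks of the nuclear pore complex, and the nuclear transport receptors that carry cargo through it. Members were chosen by gene symbol alone, as symbols that begin with Nup and a digit, Kpna, Kpnb, Ipo and a digit, Xpo or Tnpo and that are listed in all 8 expression tables. This gave 43 genes of the 15962 listed in all tables, and 38 of them were among the 13968 genes abundant enough to be tested. The 5 members that were too low to test were *Kpna1*, *Kpna4*, *Nup210*, *Nup210l* and *Xpot*.

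The pore is built from stacked rings. A Y-shaped scaffold complex forms the outer rings, inner ring proteins join them, and proteins rich in phenylalanine-glycine repeats fill the central channel and reach out to the cytoplasmic filaments and the nuclear basket. Importin alpha proteins recognise the classical nuclear localisation signal and bind importin beta 1 (*Kpnb1*), while other importins and the transportins bind their cargo directly, and exportins carry cargo out together with RanGTP. In the fully grown oocyte these RNAs are part of the stored maternal pool, and during meiotic maturation the large nucleus called the germinal vesicle breaks down and its pores are taken apart.

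Polyadenylated RNA was measured by Smart-seq2, a low-input method primed with oligo(dT), in 8 libraries of 15 mouse oocytes each, with 2 libraries in each of 4 groups. All oocytes came from female Crl:CD1 (ICR) mice, for which the methods give an age of 6 weeks and priming with pregnant mare's serum gonadotropin. The control groups were oocytes at the germinal vesicle stage (GV) and oocytes cultured in vitro to metaphase II (MII). Both other groups were collected at MII, after fully grown oocytes had been microinjected with cRNA for Myc-tagged BTG4. BTG4 is an adaptor of the CCR4-NOT deadenylase that takes part in maternal mRNA decay.

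The Btg4wt group received the wild-type form and the Btg4tm group received a mutant in which 3 neighbouring threonine and serine residues were changed to alanine. Injected oocytes kept their own *Btg4* gene. No group of MII oocytes injected with a control RNA was analysed here. Levels are given as TPM scaled between libraries by the median of ratios, so a difference is relative to the median gene of the same libraries. The test was limma on log2(TPM + 1), and calls needed both an absolute log2 fold change over 1 and a p-value under 0.05 after Benjamini-Hochberg adjustment. The replicates are separate libraries whose origin from separate mice is not stated, so the p-values measure the spread between these libraries only.

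All 10 oocyte markers were listed, at 298 scaled TPM or more in every library. Of 14 cumulus and granulosa cell markers, 9 were not listed in all tables, among them *Fshr*, *Amh* and *Foxl2*, and the summed level of the other 5 was 36.1 to 36.5 scaled TPM in GV, 46.7 to 50.6 in MII, 47.1 to 47.8 in Btg4wt and 36.6 to 41.4 in Btg4tm oocytes. The share of TPM from mitochondrially encoded genes was 0.625% to 0.651% in GV, 2.60% to 2.71% in MII, 1.75% to 2.05% in Btg4wt and 0.765% to 1.02% in Btg4tm oocytes. The part of the marker levels in the results was not tested, and the mitochondrial share enters below only as an alternative scaling. *Btg4* itself measured 2650.0 and 2794 scaled TPM in GV, 5792 and 6002 in MII, 5178 and 5510.4 in Btg4wt and 3725 and 4068 in Btg4tm oocytes, so no excess of *Btg4* RNA over MII oocytes marked either injected group. The study reports immunoblots of both injected BTG4 forms and states that endogenous BTG4 seemed to be reduced by them. Protein was not measured here.

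Members differed from each other far more than most of them differed between groups. By mean scaled TPM over the 8 libraries, which is a level per transcript length, *Kpna2* was highest at 865, followed by *Kpna7* at 371, *Nup35* at 364, *Nup37* at 217, *Nup54* at 199 and *Kpna3* at 192. The order changed between groups. *Kpna7* lay above *Nup35* in both GV libraries, at 438 and 394 against 294 and 260.1 scaled TPM, and below it in both MII libraries, at 306 and 304 against 390.2 and 387. In GV oocytes *Nup43*, with a mean of 151, lay above *Nup37*, with 109. *Kpnb1*, the partner of every importin alpha, stood at 17.8 scaled TPM and *Xpo1*, the main exportin for proteins with a leucine-rich export signal, at 10.7. The 3 highest members were an importin alpha found widely in dividing cells, an importin alpha known for its oocyte expression and an inner ring nucleoporin.

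Some of these levels are uncertain because other genes carry the same sequence. In GENCODE M21, 92.4% of the 50-base stretches of the *Kpna2* transcript recur in 12 other genes, mostly processed pseudogenes. The closest copy, *Gm10184*, measured 5.59 to 18.9 scaled TPM, far under *Kpna2* in every library. For *Nup35* the shared part was 83.0%, all with *Gm4353*, which measured 228 to 393 scaled TPM, close to *Nup35* itself, so the level of *Nup35* cannot be separated from that of its copy. For *Ipo4*, 59.5% was shared with the overlapping gene *Gm49378*. *Nup54* shared 20.3% and *Tnpo1* 14.1% with 1 other gene each. Counting ignored strand and dropped reads of low mapping quality.

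The 3′ ends of the members that differed between GV and MII oocytes are shown because libraries were primed from the poly(A) tail and because tail signals lie there. Each line gives the 30 bases that end with the final poly(A) signal, AATAAA or ATTAAA, in the last 100 bases of the GENCODE M21 transcript. All lie in the 3′ untranslated region, on GRCm38. Capitals mark that signal and any TTTTAT or TTTTAAT, the cytoplasmic polyadenylation element. The first 5 genes were lower and the last 6 higher in MII than in GV oocytes.
Kpna2, chr11:106988648-106988677, minus strand: ccctgtcatgtcctgtaaataaagATTAAA
Nup43, chr10:7678833-7678862, plus strand: agaaagtggcatttgtaaggaaacAATAAA
Nup133, chr8:123897139-123897168, minus strand: ccttgcatgcatctgcattgccttAATAAA
Nup188, chr2:30344219-30344248, plus strand: ataccgtggtctatttatacaaatATTAAA
Ipo4, chr14:55625421-55625450, minus strand: acacacacataatttaaaattaaaAATAAA
Tnpo1, chr13:98839033-98839062, minus strand: tgttaatcactgcttgactatgttAATAAA
Nup153, chr13:46679905-46679934, minus strand: tatattttctcattaaattttgaaAATAAA
Ipo8, chr6:148770709-148770738, minus strand: ggaacTTTTATgaatgtactgtaaAATAAA
Nup37, chr10:88178342-88178371, plus strand: atgcctcagttgtcttttctgataAATAAA
Nup98, chr7:102119411-102119440, minus strand: gaagtactttcttaaaaaaataaaATTAAA
Kpna3, chr14:61365232-61365261, minus strand: tatatgggcttaggttttgtaaccAATAAA

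All 11 windows end in a poly(A) signal by their definition, and 1 of them, that of *Ipo8*, also holds the cytoplasmic element. Over the last 100 bases of the transcript, searched on its own strand only, AATAAA or ATTAAA was found in 31 of the 36 tested members with a 3′ untranslated region of at least 100 bases, or 86.1%, against 81.7% of 10394 tested genes. TTTTAT or TTTTAAT was found in 10 of the 36, or 27.8%, against 20.2% of those genes. TTTTAAT can overlap AATAAA by 3 bases. Of the 6 members higher in MII oocytes, *Ipo8*, *Nup37* and *Nup98* held the element. None of the 4 lower members with a region of that length did, and *Nup43*, whose region has 84 bases, held 1 copy. These are matches of letters in small groups and were not tested.

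The first question was how these RNAs differed between GV and MII oocytes. Of the 38 tested members, 6 were called higher at MII, where the background of all genes was 12.5%, and 5 were called lower, where it was 24.0%. For the members these are 15.8% and 13.2%. Members lay above the median gene: their median log2 fold change was 0.45, with the middle of the list from -0.33 to 0.85, beside -0.00 for all genes. Counting every member with an adjusted p under 0.05 and no minimum fold change, 18 were higher, or 47.4% beside 29.8% of all genes, and 9 lower, or 23.7% beside 32.8%. Directions here are relative to the median gene, and scaling to mitochondrially encoded genes shifted the median of all genes to -1.74 and that of the members to -1.49, so that 0 members were higher, beside 0.0501% of all genes, and 31 lower, which is 81.6% both of the members and of all genes. With quantile normalization, which placed the median of all genes at 0.28, 12 members were higher and 4 lower, or 31.6% and 10.5%, beside 22.6% and 19.1% of all genes.

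**Figure D1:**
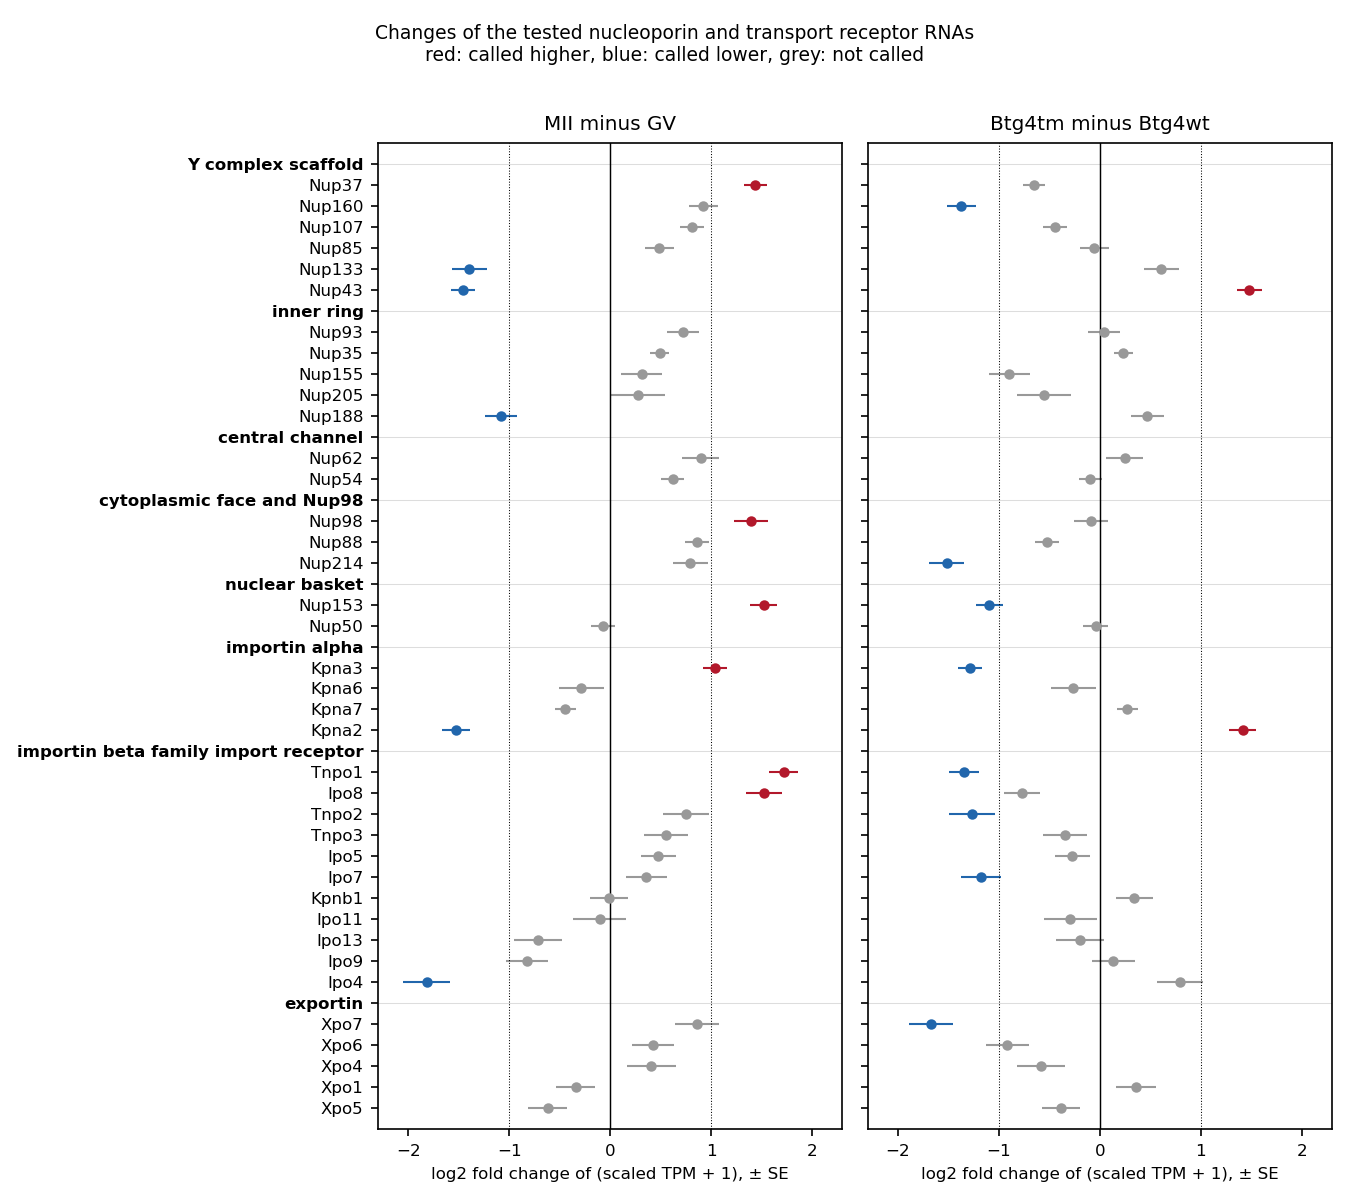
Each point is the log2 fold change of a tested member and the bar its standard error from limma, with members grouped by role, MII minus GV on the left and Btg4tm minus Btg4wt on the right, and dotted lines at a log2 fold change of -1 and 1. On the left 6 members are called higher (red) and 5 lower (blue), and on the right 2 are called higher and 8 lower. Points are relative to the median gene, and the red points on the left lie below 0 when libraries are scaled to mitochondrially encoded genes.

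The Y complex scaffold was split. Its 6 members form 1 stable complex, yet *Nup43* and *Nup133* were lower and *Nup37* was higher in MII oocytes, and *Nup85*, *Nup107* and *Nup160* were not called. *Nup43*, a propeller subunit at the short arm of the Y, measured 162 and 140 scaled TPM in GV oocytes and 56.4 and 51.8 in MII oocytes. The MII libraries were both far under the GV libraries. The log2 fold change was -1.46 (SE 0.12, adjusted p = 2.1e-05 from limma).

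*Nup133*, at the stem tip of the Y, measured 12.7 and 10.7 scaled TPM in GV and 3.94 and 3.69 in MII oocytes, again without overlap. The fitted log2 fold change was -1.40 (SE 0.17, adjusted p = 0.000176 from limma). *Nup37*, which sits on *Nup160* in the complex, went the other way, from 116 and 103 scaled TPM in GV to 297 and 296 in MII oocytes. The log2 fold change was 1.44 (SE 0.11, adjusted p = 1.54e-05 from limma). *Nup107* and *Nup160* had log2 fold changes of 0.81 and 0.92 with adjusted p = 0.000461 and 0.000615 from limma, under the fold change required for a call.

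Ratios between members of one library are untouched by any scaling that multiplies a library by 1 factor, though not by quantile normalization. *Nup43* over *Nup107* was 2.07 and 1.72 in GV, 0.382 and 0.389 in MII, 0.336 and 0.288 in Btg4wt and 1.07 and 1.35 in Btg4tm oocytes. *Nup133* over *Nup107* was 0.163 and 0.131 in GV, 0.0266 and 0.0276 in MII, 0.0435 and 0.0415 in Btg4wt and 0.0895 and 0.0972 in Btg4tm oocytes. Both ratios were lowest in MII and Btg4wt oocytes, and in both the Btg4tm libraries lay between those and GV. *Nup160* over *Nup107* behaved differently, at 0.275 and 0.289 in GV, 0.328 and 0.294 in MII and 0.365 and 0.325 in Btg4wt oocytes but 0.164 and 0.188 in Btg4tm oocytes. *Nup37* over *Nup107* was 1.48 and 1.26 in GV and 2.01 and 2.22 in MII oocytes. For Btg4wt oocytes it was 1.93 and 2.05 and for Btg4tm oocytes 1.46 and 2.04, so these groups overlapped. With 2 libraries against 2, an exact permutation test of such a ratio cannot give a p below 0.333, so these are descriptions.

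**Figure D2:**
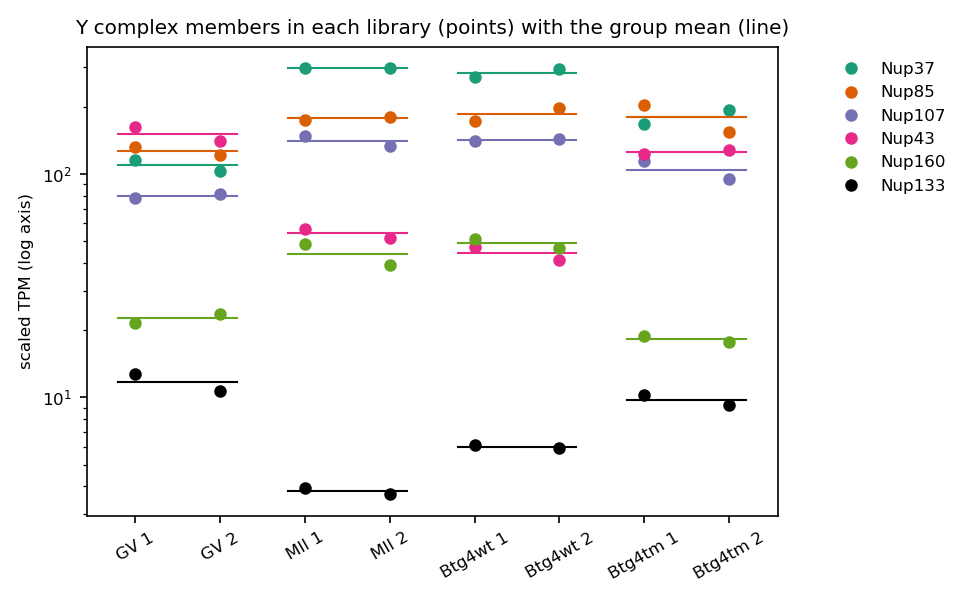
The scaled TPM of the 6 Y complex members is plotted for each library on a log axis, with lines at the group means. *Nup43* and *Nup133* are lowest in MII and Btg4wt oocytes, where *Nup37* and *Nup160* are highest, and *Nup160* is lowest in Btg4tm oocytes at 18.7 and 17.8 scaled TPM.

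In the inner ring, 1 of 5 members was called lower and 0 higher, beside 24.0% and 12.5% of all genes. *Nup188* measured 26.0 and 30.2 scaled TPM in GV and 11.6 and 13.9 in MII oocytes, with a log2 fold change of -1.08 (SE 0.16, adjusted p = 0.000491 from limma). It was not called when GV replicate 2 or MII replicate 1 was left out, where the log2 fold change was -0.97 and -0.95. Quantile normalization gave -0.82 for *Nup188*, also not called. *Nup205*, the paralog of *Nup188*, measured 3.16 and 3.29 in GV and 4.70 and 3.56 in MII oocytes, with a log2 fold change of 0.27 (95% interval -0.35 to 0.89). *Nup35*, the most abundant of the ring, measured 294 and 260.1 in GV and 390.2 and 387 in MII oocytes, a log2 fold change of 0.49 (adjusted p = 0.0021 from limma).

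Of the 7 nucleoporins of the channel, the cytoplasmic face and the basket, 2 were called higher in MII oocytes, beside 12.5% of all genes. The other 5 were not called. With scaling to mitochondrially encoded genes *Nup153* and *Nup98* turned to -0.65 and -0.80. *Nup153*, the basket protein that docks transport receptors, measured 28.0 and 28.7 scaled TPM in GV and 83.3 and 82.9 in MII oocytes. Its log2 fold change was 1.52 (SE 0.13, adjusted p = 2.89e-05 from limma). *Nup50*, its partner in the basket, measured 51.7 and 53.4 in GV and 52.7 and 47.2 in MII oocytes, so these groups overlapped, and the 95% interval of its log2 fold change ran from -0.35 to 0.21. *Nup153* over *Nup50* was 0.540 and 0.537 in GV against 1.58 and 1.75 in MII oocytes.

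*Nup98*, whose precursor also yields the scaffold protein Nup96, measured 89.1 and 63.9 scaled TPM in GV and 215 and 187 in MII oocytes. The GV libraries were both lower, and the log2 fold change was 1.40 (SE 0.17, adjusted p = 0.000157 from limma). *Nup62* and *Nup54*, of the central channel, had log2 fold changes of 0.90 and 0.62, and *Nup88* and *Nup214*, of the cytoplasmic face, 0.86 and 0.79. All 4 had adjusted p-values under 0.05 and missed the minimum fold change. The membrane ring members *Nup210* and *Nup210l* were at most 1.0 and 0.435 scaled TPM in any library.

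Import receptors moved in both directions. *Kpna2* measured 1478 and 1252 scaled TPM in GV and 464 and 478 in MII oocytes, a log2 fold change of -1.53 (SE 0.14, adjusted p = 2.98e-05 from limma). *Kpna3* measured 113 and 128 in GV and 246 and 250.0 in MII oocytes, a log2 fold change of 1.04 (SE 0.12, adjusted p = 9.79e-05 from limma) that was 0.95 and no longer called without GV replicate 1. On TPM as deposited it was 0.88 and also not called. Thus the most abundant importin alpha was lower and the third in rank was higher. *Kpna7* measured 438 and 394 in GV and 306 and 304 in MII oocytes, and its log2 fold change of -0.44 (adjusted p = 0.00575 from limma) was under the fold change required.

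Summed over the 6 importin alpha genes, the level was 2035 and 1780 scaled TPM in GV and 1018 and 1037 in MII oocytes. Within a library, *Kpna2* gave 72.6% and 70.3% of that sum in GV, 45.5% and 46.0% in MII, 44.4% and 37.8% in Btg4wt and 70.3% and 67.1% in Btg4tm oocytes. The *Kpna3* share was 5.55% and 7.18% in GV, 24.1% and 24.1% in MII, 26.2% and 26.6% in Btg4wt and 5.96% and 7.68% in Btg4tm oocytes. Both shares separate GV and Btg4tm from MII and Btg4wt libraries with no overlap. The *Kpna7* share moved less, from 21.5% and 22.1% in GV to 30.02% and 29.3% in MII oocytes, and *Kpna1*, *Kpna4* and *Kpna6* each stayed under 0.5% in every library.

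**Figure D3:**
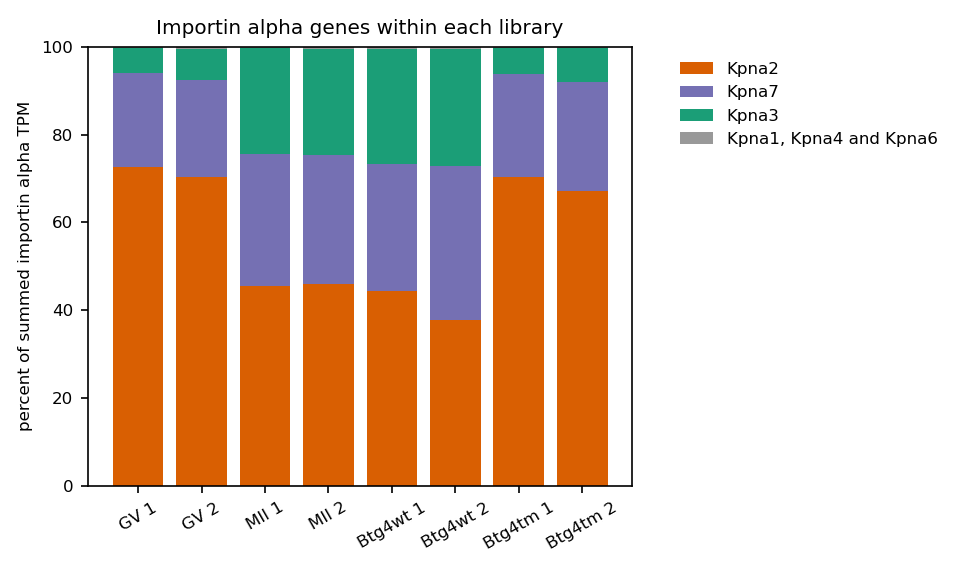
Stacked bars give, for each library, the percent of the summed importin alpha TPM that each gene supplies. *Kpna2* supplies 67.1% to 72.6% in the GV and Btg4tm libraries and 37.8% to 46.0% in the MII and Btg4wt libraries, while *Kpna3* supplies 5.55% to 7.68% and 24.1% to 26.6%.

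Of the 11 members of the importin beta family, 2 were higher and 1 lower in MII oocytes, beside 12.5% and 24.0% of all genes. *Tnpo1*, transportin 1, which imports proteins with a proline-tyrosine signal, measured 21.5 and 28.1 scaled TPM in GV and 84.7 and 81.7 in MII oocytes. Its log2 fold change of 1.72 (SE 0.15, adjusted p = 2.53e-05 from limma) was the largest rise among members. *Ipo8* measured 60.6 and 70.4 in GV and 192 and 187 in MII oocytes, a log2 fold change of 1.52 (SE 0.18, adjusted p = 0.000145 from limma).

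*Ipo4*, an importer of histones and ribosomal proteins, measured 4.83 and 5.09 scaled TPM in GV and 0.773 and 0.606 in MII oocytes. The log2 fold change of *Ipo4* was -1.82 (SE 0.23, adjusted p = 0.000199 from limma), and at such low levels the scale of log2(TPM + 1) understates a change. *Kpnb1* measured 19.0 and 18.1 in GV and 18.7 and 18.0 in MII oocytes, with a log2 fold change of -0.01 (95% interval -0.44 to 0.42). *Tnpo1* over *Kpnb1* therefore went from 1.14 and 1.55 in GV to 4.52 and 4.53 in MII oocytes.

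None of the 5 tested exportins was called, beside 12.5% of all genes higher and 24.0% lower. *Xpo1* measured 15.7 and 11.9 scaled TPM in GV and 10.4 and 10.7 in MII oocytes, with a log2 fold change of -0.34 (95% interval -0.80 to 0.11). *Xpo5*, which exports precursor microRNAs, had a log2 fold change of -0.62 (adjusted p = 0.0209 from limma) and *Xpo7* of 0.86 (adjusted p = 0.00854 from limma). With scaling to mitochondrially encoded genes *Xpo1*, *Xpo4*, *Xpo5*, *Xpo6* and *Xpo7* were at -2.37, -1.49, -2.57, -1.47 and -0.89. The median of all genes was then -1.74. In these pools a lower level per oocyte and a shorter poly(A) tail on the same RNA cannot be told apart, and neither can fewer oocytes with the RNA and less RNA in each.

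**Figure D4:**
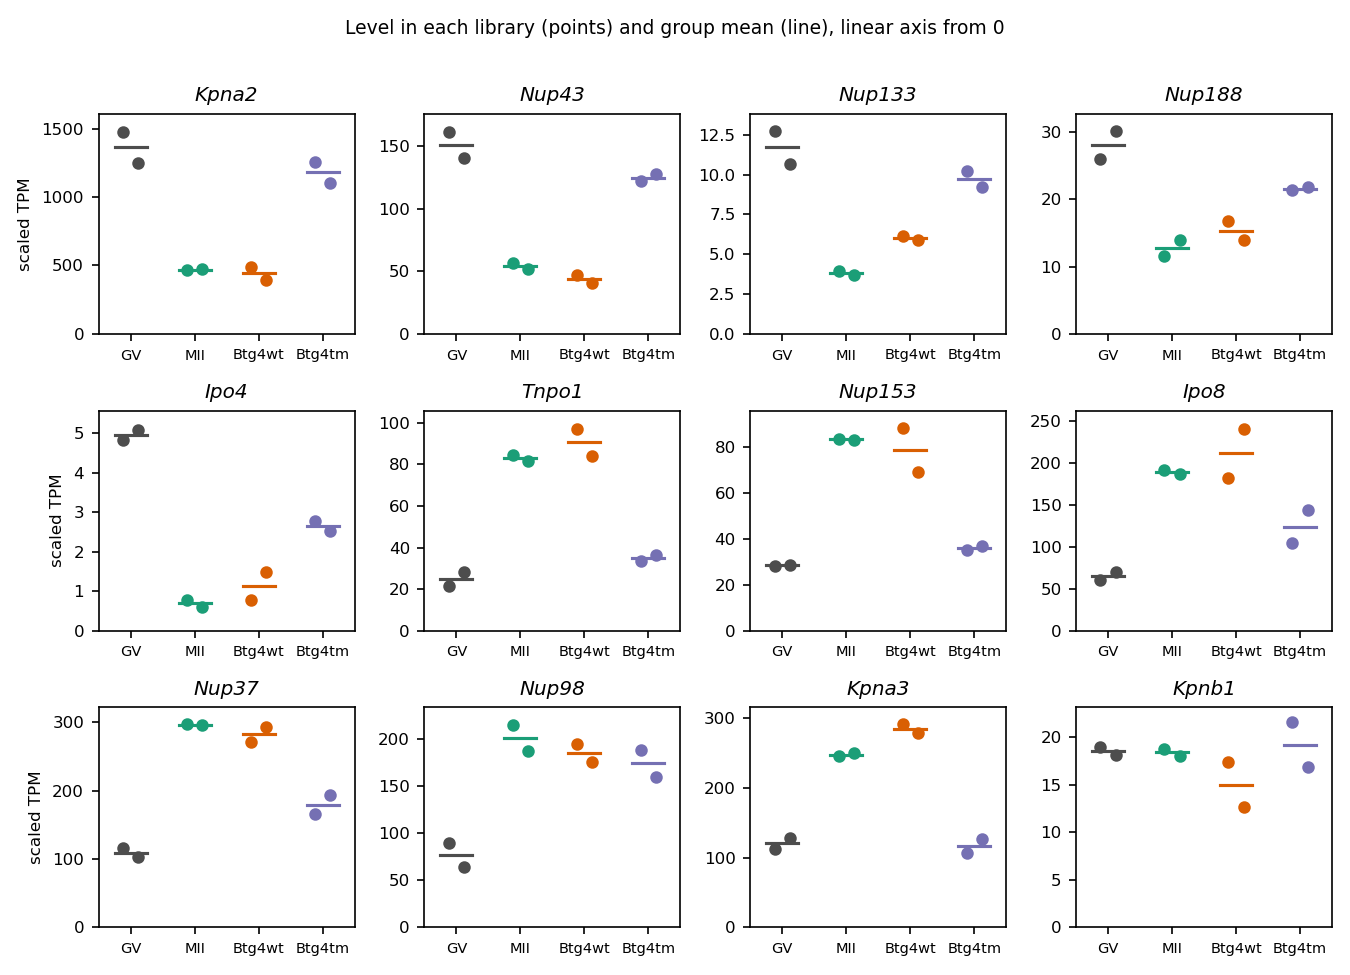
Points give the scaled TPM of each library and lines the group means, on linear axes from 0, for the 11 members called between MII and GV oocytes and for *Kpnb1*. In all plotted genes except *Nup98* and *Kpnb1* the Btg4tm libraries lie on the GV side of the Btg4wt libraries. In *Nup98* they overlap with the Btg4wt libraries, and *Kpnb1* overlaps between GV and MII.

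The second question was whether mutant BTG4 left these RNAs at other levels than wild-type BTG4. Of the 38 tested members, 2 were higher in Btg4tm than in Btg4wt oocytes, against 18.1% of all genes tested, and 8 were lower, against 7.94% of all genes tested. For the members these are 5.26% and 21.1%. Their median log2 fold change was -0.28, beside 0.01 for all genes. With scaling to mitochondrially encoded genes the median of all genes was 0.88 and that of the members 0.62, with 14 members higher, or 36.8% beside 43.6% of all genes, and 0 lower beside 0.494%.

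The 2 members that were higher with the mutant were *Kpna2* and *Nup43*, both also lower in MII than in GV oocytes. *Kpna2* measured 492 and 396 scaled TPM in Btg4wt and 1255 and 1106 in Btg4tm oocytes. This was a log2 fold change of 1.41 (SE 0.14, adjusted p = 7.44e-05 from limma). *Nup43* measured 47.3 and 41.1 in Btg4wt and 122 and 128 in Btg4tm oocytes, a log2 fold change of 1.48 (SE 0.12, adjusted p = 3.26e-05 from limma).

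Set against the GV to MII difference on the log2 scale, the difference between Btg4tm and Btg4wt oocytes came to 92.5% for *Kpna2* and 101% for *Nup43*. For *Ipo4*, *Nup133* and *Nup188*, the other members lower in MII oocytes, it was 43.7%, 43.5% and 43.5%. Their log2 fold changes between Btg4tm and Btg4wt oocytes were 0.80, 0.61 and 0.47, each with an adjusted p under 0.05 from limma and without the minimum fold change. *Ipo4* measured 0.772 and 1.48 scaled TPM in Btg4wt and 2.77 and 2.52 in Btg4tm oocytes. These percentages describe members picked by their fall and carry no test. They also depend on the scaling. With scaling to mitochondrially encoded genes *Kpna2* was at -3.74 in MII minus GV and 2.501 in Btg4tm minus Btg4wt oocytes. *Nup43* was at -3.645 and 2.551, so for both the mutant difference fell short of the GV to MII difference. For *Ipo4* the values were -3.17 and 1.45, for *Nup133* -3.25 and 1.56, and for *Nup188* -3.16 and 1.497.

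The 8 members that were lower with the mutant came from 6 role classes. *Xpo7*, an exportin family member with a broad set of cargoes, measured 7.20 and 7.54 scaled TPM in Btg4wt and 1.35 and 1.92 in Btg4tm oocytes. Its log2 fold change was -1.68 (SE 0.22, adjusted p = 0.000353 from limma). *Nup214*, which anchors mRNA export factors at the cytoplasmic face, measured 96.9 and 82.0 in Btg4wt and 26.8 and 34.5 in Btg4tm oocytes. The log2 fold change of *Nup214* was -1.52 (SE 0.17, adjusted p = 0.000181 from limma).

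*Nup160* of the Y complex measured 51.4 and 46.5 scaled TPM in Btg4wt and 18.7 and 17.8 in Btg4tm oocytes, a log2 fold change of -1.37 (SE 0.14, adjusted p = 0.000108 from limma). *Nup153* measured 88.1 and 68.9 in Btg4wt and 34.9 and 36.9 in Btg4tm oocytes, a log2 fold change of -1.10 (SE 0.13, adjusted p = 0.000261 from limma). Without Btg4wt replicate 1 the value for *Nup153* was -0.93 and it was not called. In every one of these genes both Btg4tm libraries lay under both Btg4wt libraries. Their selection as called lower makes this likely, so it adds nothing to the calls.

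The other 4 were receptors. *Kpna3* measured 291 and 279 scaled TPM in Btg4wt and 106 and 127 in Btg4tm oocytes, with a log2 fold change of -1.29 (SE 0.12, adjusted p = 5.2e-05 from limma). *Tnpo1* measured 97.1 and 84.1 in Btg4wt and 33.5 and 36.4 in Btg4tm oocytes, with a log2 fold change of -1.35 (SE 0.15, adjusted p = 0.000148 from limma). Its close paralog *Tnpo2* fell from 11.4 and 9.43 to 4.76 and 2.90, by 1.27 on the log2 scale (SE 0.23, adjusted p = 0.00215 from limma). Without Btg4tm replicate 2 the log2 fold change of *Tnpo2* was -0.99 and it was not called. *Ipo7*, an importer of ribosomal proteins, measured 3.19 and 2.91 in Btg4wt and 0.899 and 0.684 in Btg4tm oocytes, with a log2 fold change of -1.18 (SE 0.20, adjusted p = 0.00161 from limma). These levels are low, and *Ipo7* was not tested with a filter of 5 TPM.

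Of the 6 members higher in MII than in GV oocytes, *Tnpo1*, *Nup153* and *Kpna3* were thus lower with the mutant. *Ipo8* measured 183 and 241 scaled TPM in Btg4wt and 105 and 144 in Btg4tm oocytes, a log2 fold change of -0.77 (adjusted p = 0.00798 from limma), and *Nup37* 272 and 293 against 166 and 193, a log2 fold change of -0.65 (adjusted p = 0.00163 from limma). *Ipo8* was called without Btg4tm replicate 2, where its log2 fold change was -1.001. *Nup98* measured 195 and 175 in Btg4wt and 188 and 159 in Btg4tm oocytes. These groups overlapped, and the 95% interval of the log2 fold change of *Nup98* was -0.48 to 0.30.

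Relative to the size of the GV to MII difference and with the opposite sign, the mutant difference was 124% for *Kpna3*, 78.5% for *Tnpo1*, 72.2% for *Nup153*, 50.6% for *Ipo8*, 45.4% for *Nup37* and 6.56% for *Nup98*. With scaling to mitochondrially encoded genes none of these 6 was higher in MII oocytes, so no such percentage can be given. Over all tested members the 2 comparisons, which share no library, tended to run in opposite directions, as they did over all genes. Spearman's rho between them was -0.68 over the 38 members and -0.81 over the 13968 genes, as a description across genes that share libraries and are not independent replicates.

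**Figure D5:**
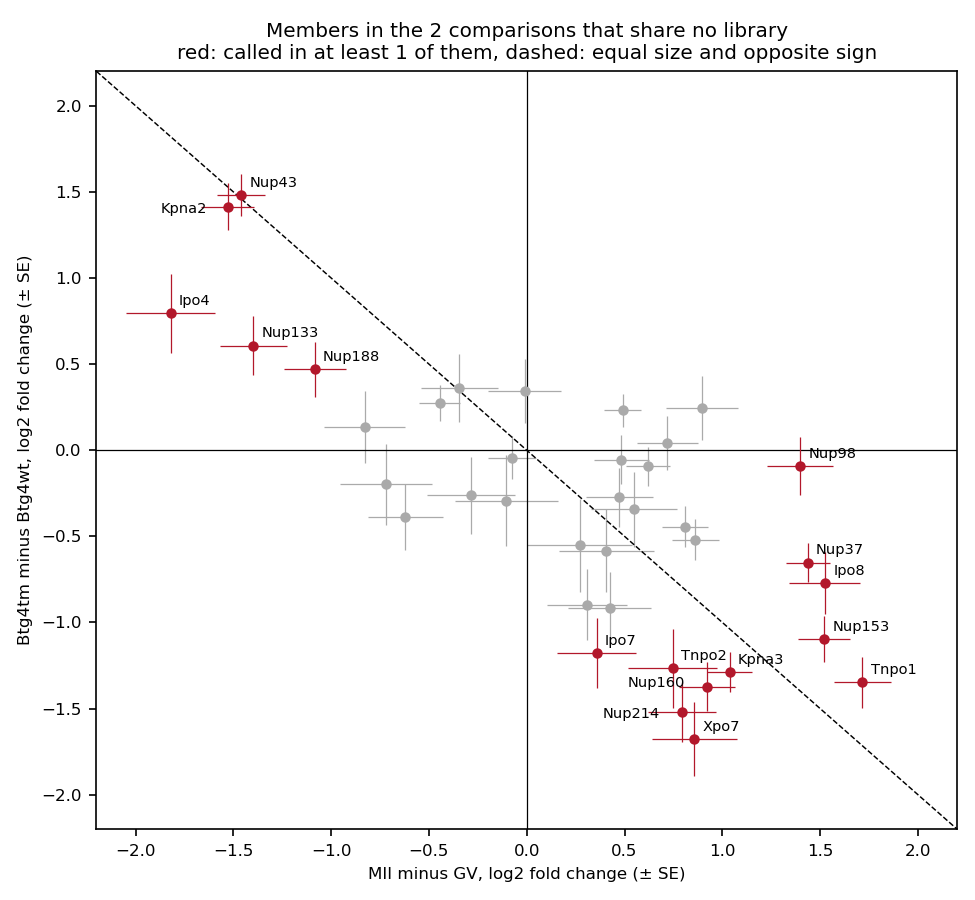
Each point is a tested member, with the log2 fold change of MII minus GV on the x axis and of Btg4tm minus Btg4wt on the y axis, bars for standard errors and a dashed line where both have equal size and opposite sign. *Kpna2* and *Nup43* lie at the dashed line, *Ipo4*, *Nup133* and *Nup188* lie between it and 0, and *Nup98* lies near 0 on the y axis at 1.40 on the x axis. Positions are relative to the median gene and change with scaling to mitochondrially encoded genes, for some members in sign.

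A further comparison set Btg4wt oocytes beside uninjected MII oocytes. The deposited values covered 16448 genes in each Btg4wt library and 17384 in each MII library. Between Btg4wt and MII oocytes no member was called, against 0.00% of all genes tested, and no gene at all had an adjusted p under 0.05 in limma, the smallest being 0.0856. At an unadjusted p under 0.05 there were 1655 genes, among them 2 members. These were *Nup133*, with a log2 fold change of 0.55 (adjusted p = 0.302 from limma), and *Nup43*, with -0.29 (adjusted p = 0.411 from limma), both named after their values were seen. The largest absolute log2 fold change of a member was 0.55 and the members' median was 0.05. With scaling to mitochondrially encoded genes 69 genes were called higher and 0 lower in Btg4wt oocytes, and 0 members in either direction. The medians were then 0.39 for all genes and 0.46 for the members. A p above the threshold does not show equal levels.

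The last comparison set Btg4tm oocytes beside GV oocytes, and it uses the libraries of the first comparisons again. No member was lower, against 1.02% of all genes tested, and 2 were higher, against 1.02% of all genes tested. With scaling to mitochondrially encoded genes 10 members were lower, or 26.3% beside 21.3% of all genes, and 0 higher beside 0.272%. *Nup98* measured 188 and 159 scaled TPM in Btg4tm and 89.1 and 63.9 in GV oocytes, a log2 fold change of 1.19 (SE 0.17, adjusted p = 0.0065 from limma). *Nup62*, of the central channel, measured 106 and 75.1 in Btg4tm and 43.9 and 43.6 in GV oocytes, a log2 fold change of 1.01 (SE 0.18, adjusted p = 0.0137 from limma).

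Both of these calls depended on single libraries. Without GV replicate 2 neither was called, with log2 fold changes of 0.97 for *Nup98* and 1.03 (adjusted p = 0.078 from limma) for *Nup62*. *Nup62* was also lost without GV replicate 1, at 1.03 (adjusted p = 0.0544 from limma), and without Btg4tm replicate 1, at 0.75 (adjusted p = 0.0543 from limma), and it was not called on TPM as deposited (0.85) or with quantile normalization (0.98). *Kpna2*, *Kpna3* and *Kpna7* had log2 fold changes of -0.21, -0.05 and 0.00 in this comparison, with 95% intervals of -0.52 to 0.10, -0.31 to 0.22 and -0.23 to 0.24. These values are relative to the median gene. With scaling to mitochondrially encoded genes the median was -0.64 for all genes and -0.77 for the members.

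Across all genes, longer transcripts tended to be higher in MII than in GV oocytes and lower in Btg4tm than in Btg4wt oocytes. Spearman's rho of the log2 fold change with transcript length was 0.40 and -0.49 over 11087 genes with an annotated coding transcript. Over the 38 members it was 0.06 and -0.32. The members have long transcripts, with a median of 4640.5 bases against 2870 for those genes. The 8 members lower with the mutant ranged from 4069 to 8445 bases, and the 2 higher ones, *Kpna2* and *Nup43*, have 2054 and 1286. Genes share libraries here, so these are descriptions with no test, and the part of transcript length in the differences was not tested further.

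Other genes of the pore and of nuclear transport were taken from a list of 30 that the symbol rule leaves out, of which 28 were listed and tested. In MII against GV oocytes 6 were higher, 5 lower and 17 not called, which is 21.4% higher and 17.9% lower beside 12.5% and 24.0% of all genes. In Btg4tm against Btg4wt oocytes 4 were higher, 3 lower and 21 not called, which is 14.3% and 10.7% beside 18.1% and 7.94% of all genes. The median log2 fold changes of the list were 0.41 and -0.16. As with the members, the 6 rises in MII oocytes were relative to the median gene and none remained with scaling to mitochondrially encoded genes, where 24 were lower. With that scaling 13 were higher and 0 lower in Btg4tm than in Btg4wt oocytes. Of all genes, 81.6% were then lower in MII oocytes, and 43.6% were higher and 0.494% lower in Btg4tm than in Btg4wt oocytes.

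Among the Ran cycle genes, *Ran* itself measured 153 and 151 scaled TPM in GV and 111 and 123 in MII oocytes, a log2 fold change of -0.38 (adjusted p = 0.00936 from limma). *Ranbp1*, which helps RanGAP to release RanGTP from receptors, measured 62.2 and 51.8 in GV, 12.5 and 9.52 in MII, 11.1 and 7.34 in Btg4wt and 66.2 and 63.2 in Btg4tm oocytes. Its log2 fold change was -2.28 (SE 0.21, adjusted p = 3.37e-05 from limma) in MII against GV oocytes and 2.71 (SE 0.21, adjusted p = 2.39e-05 from limma) in Btg4tm against Btg4wt oocytes. *Ranbp3*, a cofactor of *Xpo1*, had 33.2 and 38.8 in GV, 5.49 and 6.57 in MII, 7.63 and 8.41 in Btg4wt and 25.7 and 21.8 in Btg4tm oocytes, with log2 fold changes of -2.40 and 1.45.

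*Snupn*, snurportin 1, which brings capped spliceosomal RNPs to importin beta, fell and rose in the same comparisons, from 519 and 453 scaled TPM in GV to 137 and 119 in MII and from 124 and 122 in Btg4wt to 392 and 372 in Btg4tm oocytes. These are log2 fold changes of -1.91 (adjusted p = 3.53e-06 from limma) and 1.63 (adjusted p = 1.32e-05 from limma). *Cse1l*, which returns importin alpha to the cytoplasm, measured 32.5 and 28.5 in GV and 30.9 and 27.4 in MII oocytes, with a log2 fold change of -0.06. *Rcc1*, the exchange factor of Ran, had log2 fold changes of 0.64 and -0.37, neither called.

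Of 10 pore subunits outside the symbol rule, 4 were higher in MII oocytes (*Seh1l*, *Ahctf1*, *Pom121* and *Tpr*), 0 were lower and 6 were not called. Of all genes, 12.5% were higher and 24.0% lower. *Aaas*, *Rae1* and *Gle1* were among the 6 not called, with log2 fold changes of -0.20, 0.03 and 0.18. With scaling to mitochondrially encoded genes none of the 4 was higher, and *Ahctf1*, *Pom121* and *Tpr* turned to -0.85, -0.98 and -0.98. *Tpr*, the filament protein of the basket, measured 18.8 and 21.0 scaled TPM in GV and 45.7 and 46.2 in MII oocytes, a log2 fold change of 1.17 (adjusted p = 5.61e-05 from limma). *Ahctf1*, the chromatin-binding subunit of the Y complex, and *Pom121*, a transmembrane nucleoporin, had log2 fold changes of 1.28 and 1.22 in MII against GV oocytes and of -1.47 and -1.59 in Btg4tm against Btg4wt oocytes. Without GV replicate 1 the rise of *Pom121* was 0.85 and it was not called. *Ranbp2*, the large protein of the cytoplasmic filaments, had log2 fold changes of 0.34 and -0.80, neither called.

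Of the mRNA export genes, *Nxf1*, the main export receptor, measured 106 and 92.6 scaled TPM in GV and 45.4 and 50.2 in MII oocytes, a log2 fold change of -1.04 (adjusted p = 0.000423 from limma) that was not called without GV replicate 1 (-0.94) or MII replicate 1 (-0.95). Quantile normalization gave -0.82 for *Nxf1*, also not called. *Nxt2*, a partner of export receptors, had the largest rise of the list in MII oocytes, from 7.47 and 7.04 to 22.4 and 25.8, a log2 fold change of 1.60. *Ddx19a*, a helicase of mRNA export, was lower in Btg4tm than in Btg4wt oocytes, at 149.7 and 129.6 against 366 and 426, a log2 fold change of -1.496 (adjusted p = 3.69e-05 from limma). *Alyref*, an mRNA export adaptor, stood apart: it measured 5.72 and 3.97 in GV, 3.88 and 6.01 in MII, 2.42 and 2.06 in Btg4wt and 16.6 and 21.1 in Btg4tm oocytes. Its log2 fold change was 2.61 (SE 0.25, adjusted p = 7.86e-05 from limma) in Btg4tm against Btg4wt and 1.77 (SE 0.25, adjusted p = 0.00664 from limma) in Btg4tm against GV oocytes.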

How the data were processed

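Each of 8 tables, 1 per library of 15 oocytes, held TPM per gene symbol. The TPM were made by the authors, per the labels and methods, by trimming reads with Trim Galore 0.6.10, aligning to GRCm38 with HISAT2 2.2.0 and counting on exons of GENCODE vM25 with featureCounts 2.0.6, without strand and with a mapping quality of at least 10. The gene lengths and the filter behind the deposited TPM are not given in the sources used here. GV and MII libraries listed 17384 genes each, and Btg4wt and Btg4tm libraries 16448. Comparisons of Btg4wt with MII and of Btg4tm with GV oocytes thus cross differing gene lists. The labels give 3 samples a group, of which 2 a group were analysed here. TPM keep no read counts, so the depth is unknown and precision rests on 2 libraries a group. The authors tested with DESeq2 on counts, which were not used here.

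The 15962 genes listed in all tables were scaled by the median of ratios. Those that reached 1 TPM in 2 or more libraries (13968) were fitted as log2(TPM + 1) with limma 3.58.1 in R 4.3.3 over all 8 libraries (eBayes with trend), with Benjamini-Hochberg adjustment over all of them. Fits were tested on simulated data. Positions and 3′ ends came from GENCODE M21 on GRCm38, with 1 coding transcript a gene (best APPRIS class, then longest). The symbols and lists were chosen with earlier results of these data known. All members could be named. Values by library are given for called members, up to the 6 largest in each direction, the highest member of each class, *Kpna2* and *Kpna7*, and of the other lists for the 3 largest called changes in each direction and a few set genes, while *Ipo7*, *Nup50*, *Nup205* and *Kpnb1* were added after their values were seen. Alternatives were other scalings (TPM as deposited, quantile, mitochondrially encoded genes), a replicate block, a filter of 5 TPM or none, eBayes without trend, fits of the 4 libraries compared, a pseudocount of 0.1, other thresholds and leaving out each library.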

Additional observations from a re-analysis of the deposited data

How the results depend on the processing

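Of the 23 calls of single members, all 23 kept their direction and threshold with a pseudocount of 0.1, without a filter, with only the 4 libraries of a comparison and with eBayes without trend. With a filter of 5 TPM 22 did, and *Ipo7* was too low to be tested. The replicate numbers in the labels are shared by all groups, but nothing ties same-numbered libraries together: deviations from the group means correlated at -0.0539 to 0.0555. A replicate block left all 23 calls in place, with 5 members lower at MII, 6 members higher and 2 higher and 8 lower in Btg4tm than in Btg4wt oocytes, and moved the other transport genes lower in MII oocytes from 5 to 4.

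Directions depended on the scaling. With scaling to mitochondrially encoded genes, members lower in MII oocytes went from 5 to 31 and higher from 6 to 0. Members higher in Btg4tm than in Btg4wt oocytes went from 2 to 14 and lower from 8 to 0. Against GV oocytes, 10 were lower and 0 higher in Btg4tm oocytes. Member medians became -1.49 (MII minus GV), 0.62 (Btg4tm minus Btg4wt), 0.46 (Btg4wt minus MII) and -0.77 (Btg4tm minus GV). Other transport genes became 0 higher and 24 lower in MII oocytes and 13 higher and 0 lower in Btg4tm than in Btg4wt oocytes. Of all genes, 0.0501% were then higher and 81.6% lower in MII oocytes, and 43.6% higher and 0.494% lower in Btg4tm than in Btg4wt oocytes. Against GV oocytes, 21.3% of all genes were lower and 0.272% higher in Btg4tm oocytes. Log2 fold changes in MII against GV oocytes reversed to -0.67 for *Ipo8*, -1.17 for *Kpna3*, -0.65 for *Nup153*, -0.77 for *Nup37*, -0.80 for *Nup98*, -0.45 for *Tnpo1*, -1.72 for *Nup35*, -1.59 for *Nup54*, -0.98 for *Pom121*, -0.85 for *Ahctf1*, -0.46 for *Nxt2*, -0.63 for *Lmnb1*, -1.12 for *Lbr*, -1.04 for *Syne2*, -1.37 for *Rcc1*, -0.98 for *Tpr*, -1.64 for *Ranbp2* and -1.10 for *Btg4*. The cause was not tested.

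With quantile normalization 12 members were higher at MII and 1 was higher in Btg4tm than in GV oocytes, the medians were 0.72 and -0.49, and 10 other transport genes were higher and 3 lower in MII oocytes. On TPM as deposited 1 member was higher in Btg4tm than in GV oocytes, and with an adjusted p under 0.01 also 1. With no minimum fold change, 9 members were lower and 18 higher in MII oocytes, 5 higher and 14 lower in Btg4tm than in Btg4wt oocytes, and 1 lower and 7 higher than in GV oocytes. The shares of all genes were 32.8%, 29.8%, 26.2%, 23.3%, 3.73% and 7.66% in the same order. Other transport genes were then 13 higher and 8 lower in MII oocytes and 10 higher and 8 lower in Btg4tm than in Btg4wt oocytes. For members higher in MII oocytes, the median share of the difference that Btg4tm oocytes lacked was 61.4%, and 69.5% on TPM as deposited and 74.3% on a linear scale. With mitochondrial scaling it has no value, since all 6 were then lower in MII oocytes.

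Leaving out each library in turn gave 4 to 5 members lower and 5 to 8 higher in MII oocytes, 2 to 3 higher and 8 to 9 lower in Btg4tm than in Btg4wt oocytes, 0 to 2 higher in Btg4tm than in GV oocytes, and 3 to 5 other transport genes lower in MII oocytes. The lone library of a group was then assumed to vary like the others. Depth is unknown, and precision rests on 2 libraries a group.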

Other observations

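Genes of the nuclear envelope and lamina, the membrane system in which pores sit, were taken from a list of 20, of which 16 were tested. In MII against GV oocytes 3 were higher (*Lmnb1*, *Lbr* and *Syne2*), 3 lower (*Lmna*, *Syne3* and *Tor1a*) and 10 not called, or 18.8% in each direction beside 12.5% of all genes higher and 24.0% lower. In Btg4tm against Btg4wt oocytes 2 were higher (*Tor1a* and *Lmna*) and 2 lower (*Lmnb1* and *Syne2*), or 12.5% each beside 18.1% and 7.94% of all genes. With scaling to mitochondrially encoded genes the counts were 0 higher and 14 lower in MII oocytes and 9 higher and 0 lower in Btg4tm oocytes. Of all genes, 0.0501% were then higher and 81.6% lower in MII oocytes, and 43.6% higher and 0.494% lower in Btg4tm than in Btg4wt oocytes. Of the 3 lamins, *Lmna* was called lower and *Lmnb1* higher in MII oocytes, though *Lmnb1* turned to -0.63 with that scaling, and *Lmnb2* had a log2 fold change of -0.97 (adjusted p = 0.00531 from limma), under the minimum. *Lmna*, which encodes lamins A and C, measured 32.5 and 35.9 scaled TPM in GV, 10.2 and 7.21 in MII, 12.6 and 11.5 in Btg4wt and 30.2 and 24.7 in Btg4tm oocytes. *Lmnb1*, lamin B1, measured 1.88 and 2.26 in GV, 6.29 and 4.72 in MII, 6.08 and 6.42 in Btg4wt and 1.43 and 1.34 in Btg4tm oocytes. In both genes the GV and Btg4tm libraries lay apart from the MII and Btg4wt libraries, on opposite sides. The log2 fold changes in MII against GV oocytes were -1.87 (SE 0.19, adjusted p = 5.58e-05 from limma) for *Lmna* and 1.08 (SE 0.21, adjusted p = 0.0021 from limma) for *Lmnb1*.

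*Tor1a*, an ATPase of the envelope lumen and the most abundant gene of the list, measured 972 and 896 scaled TPM in GV, 320 and 289 in MII, 275 and 286 in Btg4wt and 771 and 798 in Btg4tm oocytes. *Syne2*, a protein that links the envelope to the cytoskeleton, measured 16.7 and 18.9 in GV, 40.4 and 37.7 in MII, 39.9 and 37.2 in Btg4wt and 14.2 and 11.1 in Btg4tm oocytes. *Lbr*, the lamin B receptor, measured 106 and 99.2 in GV and 237 and 201 in MII oocytes, a log2 fold change of 1.08, and *Syne3* 7.53 and 7.87 against 1.92 and 2.69, a log2 fold change of -1.40. On TPM as deposited *Lmnb1*, *Lbr* and *Syne2* had log2 fold changes of 0.96, 0.92 and 0.94 and none of these 3 rises was called. *Lmnb1* was not called without GV replicate 1 (0.99) or MII replicate 1 (0.91), and *Lbr* not without MII replicate 1 (0.97). For *Lmna* in Btg4tm against Btg4wt oocytes the log2 fold change was 1.12, and 0.98 without Btg4tm replicate 1, where it was not called. Quantile normalization gave 0.90 for *Lmna* in this comparison, also not called.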
